A study of Mus musculus with 8 samples.

Results

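The genes described are those for copying DNA and for mitosis, taken as a list of 55 named genes, and the question is how they stood in mouse mammary luminal cells labelled as lacking 2 integrin chains. Members were found by gene symbol in the platform annotation of the array, and 51 of the 55 were measured among 19505 genes, each by 1 probe set. Ccnd1, Mcm7, Ccnb1 and Foxm1 were not analysed here. By role, 18 of 19 replication genes, 4 of 5 cyclins and kinases of the G1/S transition and 29 of 31 mitotic genes were measured.

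The series has 8 Affymetrix arrays of sorted luminal cells, the milk-producing epithelium, all from mice on day 15 of pregnancy. The control group has 4 arrays labelled as Ctrl luminal cells, and the a3a6KO group has 4 arrays labelled as a3a6KO, a name for loss of the integrin alpha chains encoded by Itga3 and Itga6, which pair with beta chains into laminin receptors. The series design calls the 4 samples of each group biological replicates, and the titles of the a3a6KO samples carry both DKO and Ctrl, so the groups stand as the cell subtype label gives them. Each sample gave 500 pg of RNA, which was amplified before labelling. The labels used here give no strain, age or Cre line and no genotype for the controls.

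A cell that divides copies its DNA in S phase and separates the copies in mitosis. Before S phase, origins of replication are licensed by Cdc6 and Cdt1, which load the Mcm2 to Mcm7 helicase; Cdc45 and the GINS complex then switch the helicase on, the polymerase alpha and primase complex starts each new strand, and the Pcna clamp, loaded by replication factor C, holds the polymerases on the template. Cyclins with their kinases drive the entry into each phase, and the spindle, its kinesins, the kinetochores and the checkpoint proteins carry out and guard chromosome separation. In the mammary gland, the epithelium proliferates through pregnancy while alveoli form, and division slows as secretion begins, when some alveolar cells copy their DNA without completing cell division. Replication genes are known as targets of E2F factors, whereas many mitotic genes are known to be held off outside the late cell cycle by the DREAM complex at an element called CHR, often near CCAAT boxes bound by NF-Y.

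Promoter sequence differed between the replication genes and the mitotic genes, a comparison that uses no array value. Promoter windows of 300 bases, 250 before and 50 after the annotated start, were taken from RefSeq (build GRCm38.p6) for 44 of the 55 members, 42 of them measured. Ccnd1, Kif20a, Cdc25c, Foxm1, Ccne2, Tpx2, Ccna2, Gins2, Mcm4, Gins1 and Aurkb had no entry. Both strands were searched for an E2F motif (TTTCCCGC, TTTCGCGC, TTTGCCGC or TTTGGCGC), the CHR (TTTGAA or TTCGAA) and the CCAAT box (CCAAT). Matches of a motif may overlap each other, and a match is a run of letters, not a measured site of binding. The E2F motif was found in 7 of 15 measured replication genes (46.7%), in 1 of 24 mitotic genes (4.17%) and in 2.26% of all 32851 windows of this length. The CHR was found in 20 of 24 mitotic genes (83.3%), in 3 of 15 replication genes (20%) and in 19.2% of all windows. CCAAT was found in 73.3% of the replication windows, 79.2% of the mitotic windows and 37.4% of all windows. Both CHR and CCAAT were present in 18 of 24 mitotic windows (75%), against 7.52% of all windows. Mean GC content was 57.3% in the replication windows, 59.5% in the mitotic windows and 53.8% in all windows. The 7 replication genes with an E2F match were Cdc6, Cdt1, Mcm3, Mcm5, Mcm6, Pola1 and Rfc3. The 4 mitotic genes whose window had no CHR match were Birc5, Cenpe, Mad2l1 and Nusap1.

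The 250 bases before the start are shown for 2 replication genes whose values did not overlap between the groups, Mcm6 and Pola1, and for 2 mitotic genes, the proliferation marker Mki67 and Ube2c, which lay above the intron control sets on every array. They are read 5′ to 3′ on the strand of the gene, and capitals mark every E2F, CHR and CCAAT match on either strand. Positions are chr1:128359706-128359955 (minus strand), chrX:93632156-93632405 (minus strand), chr7:135716380-135716629 (minus strand) and chr2:164769679-164769928 (plus strand) in GRCm38.p6.
Mcm6: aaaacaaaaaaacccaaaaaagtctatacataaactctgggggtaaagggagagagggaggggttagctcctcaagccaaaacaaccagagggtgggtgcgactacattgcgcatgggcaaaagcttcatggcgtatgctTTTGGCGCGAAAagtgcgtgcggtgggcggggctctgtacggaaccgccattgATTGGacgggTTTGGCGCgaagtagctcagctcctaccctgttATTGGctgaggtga
Pola1: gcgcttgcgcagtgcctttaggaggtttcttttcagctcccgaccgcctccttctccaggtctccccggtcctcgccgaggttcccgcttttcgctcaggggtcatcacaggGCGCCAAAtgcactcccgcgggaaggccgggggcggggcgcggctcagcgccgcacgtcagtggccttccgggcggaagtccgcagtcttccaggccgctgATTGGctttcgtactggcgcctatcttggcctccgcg
Mki67: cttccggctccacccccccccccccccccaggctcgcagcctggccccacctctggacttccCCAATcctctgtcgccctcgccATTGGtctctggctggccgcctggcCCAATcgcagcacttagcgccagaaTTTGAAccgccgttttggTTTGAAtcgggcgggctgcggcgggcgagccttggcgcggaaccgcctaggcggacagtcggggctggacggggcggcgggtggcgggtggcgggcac
Ube2c: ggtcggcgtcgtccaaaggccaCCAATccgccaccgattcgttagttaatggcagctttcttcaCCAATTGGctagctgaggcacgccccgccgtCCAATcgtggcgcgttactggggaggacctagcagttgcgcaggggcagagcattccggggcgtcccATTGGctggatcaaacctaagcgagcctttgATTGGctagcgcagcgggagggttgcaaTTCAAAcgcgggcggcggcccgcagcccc
The Mcm6 stretch holds 3 E2F matches, of which the pair farthest from the start overlaps, and 2 CCAAT matches. Pola1 holds 1 E2F match and 1 CCAAT match. Mki67 holds 2 CHR and 3 CCAAT matches with no E2F match, and Ube2c holds 6 CCAAT matches, a pair of them overlapping, ahead of 1 CHR match.

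Shorter windows, with 15 bases on either side of a match, show the same elements in other members. Here capitals mark E2F matches in the 3 replication genes that come first and CHR matches in the 5 mitotic genes after them. The windows are chr11:98907998-98908035 (Cdc6, plus strand), chr8:75109341-75109378 (Mcm5, plus strand), chr5:151651196-151651233 (Rfc3, minus strand), chr10:69352907-69352942 (Cdk1, minus strand), chr4:118437341-118437376 (Cdc20, minus strand), chr9:70421530-70421565 (Ccnb2, minus strand), chr1:189688064-189688099 (Cenpf, minus strand) and chr11:99024192-99024227 (Top2a, minus strand).
Cdc6: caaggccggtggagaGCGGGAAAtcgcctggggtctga
Mcm5: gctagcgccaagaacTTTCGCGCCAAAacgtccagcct
Rfc3: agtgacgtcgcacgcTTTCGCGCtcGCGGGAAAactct
Cdk1: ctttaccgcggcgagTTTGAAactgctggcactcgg
Cdc20: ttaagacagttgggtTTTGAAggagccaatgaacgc
Ccnb2: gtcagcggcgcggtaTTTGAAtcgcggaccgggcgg
Cenpf: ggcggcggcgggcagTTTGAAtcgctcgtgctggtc
Top2a: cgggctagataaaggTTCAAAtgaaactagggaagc
Counted from the annotated start, the CHR matches printed begin at -15 in Cdk1, -18 in Cdc20, 5 in Ccnb2, 3 in Cenpf and -23 in Top2a. The windows of Cdk1, Ccnb2 and Top2a also hold CHR matches farther from the start, which are not printed here. Of the 28 CHR matches in the mitotic windows, 19 had their centre within 50 bases of the start, and of the 12 E2F matches in the replication windows, 6 did. Positions were not counted over all windows.

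**Figure D1:**
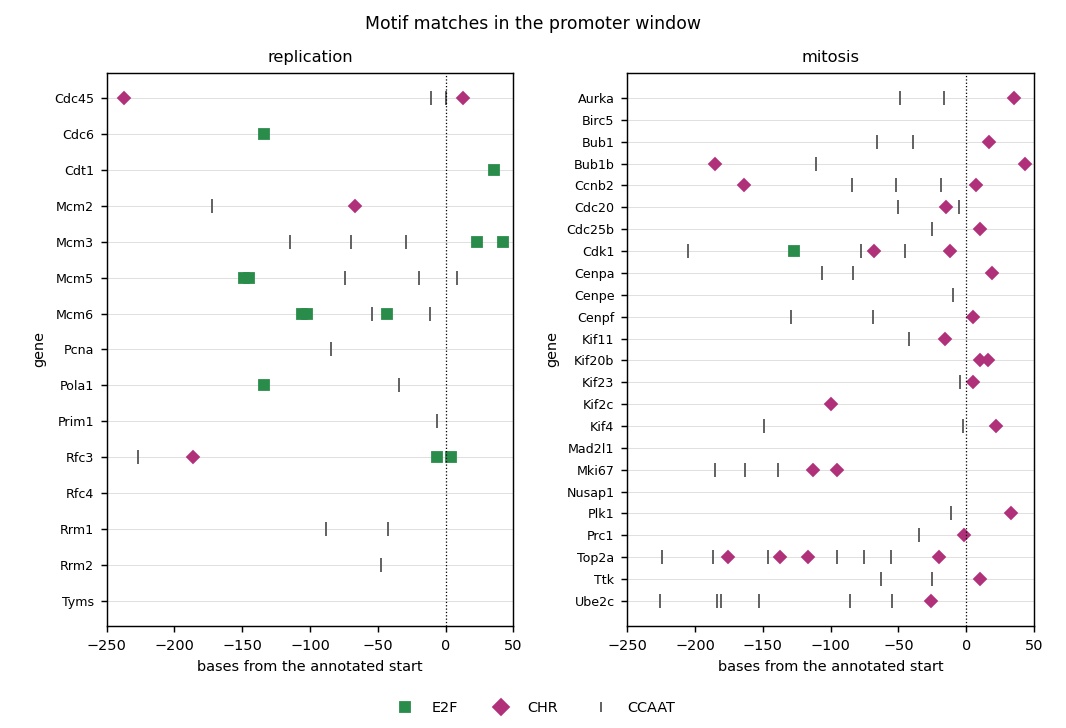
Centres of E2F, CHR and CCAAT matches in the promoter windows of 15 replication genes (left) and 24 mitotic genes (right), with bases from the annotated start on the x axis and 1 gene per row. E2F matches occur in 7 replication rows and 1 mitotic row, and CHR matches in 20 mitotic rows and 3 replication rows.

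Signal over background, taken as the area under the curve for telling exon control sets from intron ones, was 0.852 to 0.879, and the number of genes over the intron 95th percentile was 2244 (control 1) to 3229 (control 3). All 12 luminal markers lay over the intron 95th percentile on every array. That shows luminal RNA on each array but not how pure the sort was, since some markers of other cells, given below, also exceeded it. Itga6 was 8.83, 8.73, 9.14 and 8.80 in the controls and 5.95, 3.65, 8.21 and 7.85 in the libraries labelled a3a6KO 1 to 4, so this targeted gene was nearer the control level in the libraries labelled a3a6KO 3 and 4. Whether the probes lie in the deleted parts is not known here. Itga3 was 6.72, 6.30, 5.37 and 7.27 in the controls and 5.11, 4.34, 5.55 and 5.6 in the a3a6KO libraries, so a3a6KO 3 and 4 lay below 3 of the 4 controls and above control 3, and a3a6KO 1 and 2 lay below all controls. The counts that open the comparison and the medians by role are therefore also given without a3a6KO 3 and 4, as are the 8 members whose difference changed sign. Markers of basal cells, the outer epithelial layer, were lower in the a3a6KO mean in 12 of 12 genes; their mean log2 level was 6.20 to 7.76 in control and 5.54 to 7.02 in a3a6KO, with Krt14 and Acta2 above the 95th percentile on every array. The basal markers of smallest p were Trp63 (-2.43, no overlap) and Krt5 (-2.54), and the luminal ones were Muc1 (-0.75, no overlap) and Wap (-0.59), none past the threshold. For 11 leukocyte markers the ranges of the mean were 3.43 to 4.03 and 3.42 to 3.68; 6 of them lay above the intron median on every array, Ptprc reached 7.07 in control 3, above the 95th percentile, and Cd3e and Cd3g were under the intron median on every array. For 10 endothelial markers they were 4.17 to 6.23 and 3.82 to 5.91, for 9 fibroblast markers 3.91 to 4.66 and 3.86 to 4.80, with Col1a2 at 0.61 (no overlap) and Col3a1 at 0.88, and for 8 adipocyte markers 5.46 to 5.87 and 5.46 to 6.03. The genes of smallest p in the other lists were Ptprc (-0.99) and Tyrobp (0.31) for leukocytes, Eng (0.94) and Vwf (-0.40) for endothelium, and Cidec (0.36) and Retn (-0.29) for adipocytes. These markers and cell cycle genes of such cells share the bulk sample, and the part of the markers in the results below was not tested.

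Most of the members were faint. Of the 51 members, 3 lay on every array over that array's intron 95th percentile, 12 did on some arrays and 36 on none, so 29.4% of members did so at least once, against 23.6% of all genes. On every array it was 5.88% of members, against 8.25% of all genes. The 3 were Pcna, Cdk4 and Ube2c. The intron median was the lower mark, and 40 of the 51 exceeded it on all 8 arrays (78.4%, against 64.0% of all genes). The number of members above the 95th percentile in the controls was 4, 7, 9 and 5, against 5, 10, 5 and 10 in the a3a6KO arrays, so the groups overlapped. The median member stood at percentile 79.7 to 84.1 of the intron sets in control and 81.2 to 86.1 in a3a6KO. In bulk RNA, fewer dividing cells and less RNA per dividing cell cannot be told apart.

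No member passed the test of a3a6KO against control. In limma, fitted over 19505 genes, 0 of 51 members had an adjusted p under 0.05, as did 0.0% of all genes, and the adjusted p-values of the members ran from 0.743 to 0.998 (limma, n = 4 per group). The means nevertheless leaned one way: 32 of 51 members (62.7%) had a higher mean in a3a6KO, against 49.9% of all genes, and the median log2 difference was 0.31 in the members and -0.0025 in all genes. Members with an unadjusted limma p under 0.05 numbered 8 higher (15.7%), against 2.4% of all genes, and 0 lower, against 2.73%; in either direction the share of all genes was 5.13%. The 8 became 5 without control 4. In 4 members (7.84%) all a3a6KO values lay above all control values, against 1.38% of all genes, and in 0 members below, against 1.56%; in either direction the share of all genes was 2.94%. The 4 were Pola1, Mcm3, Mcm6 and Kif20a. The members were noisier than most genes, with a median standard error of 0.333 against 0.234. Without a3a6KO 3 and 4, 38 of 51 members were higher and the median was 0.41. Without control 4 and a3a6KO 3, the libraries highest in endothelial markers, 34 were higher and the median was 0.35.

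**Figure D2:**
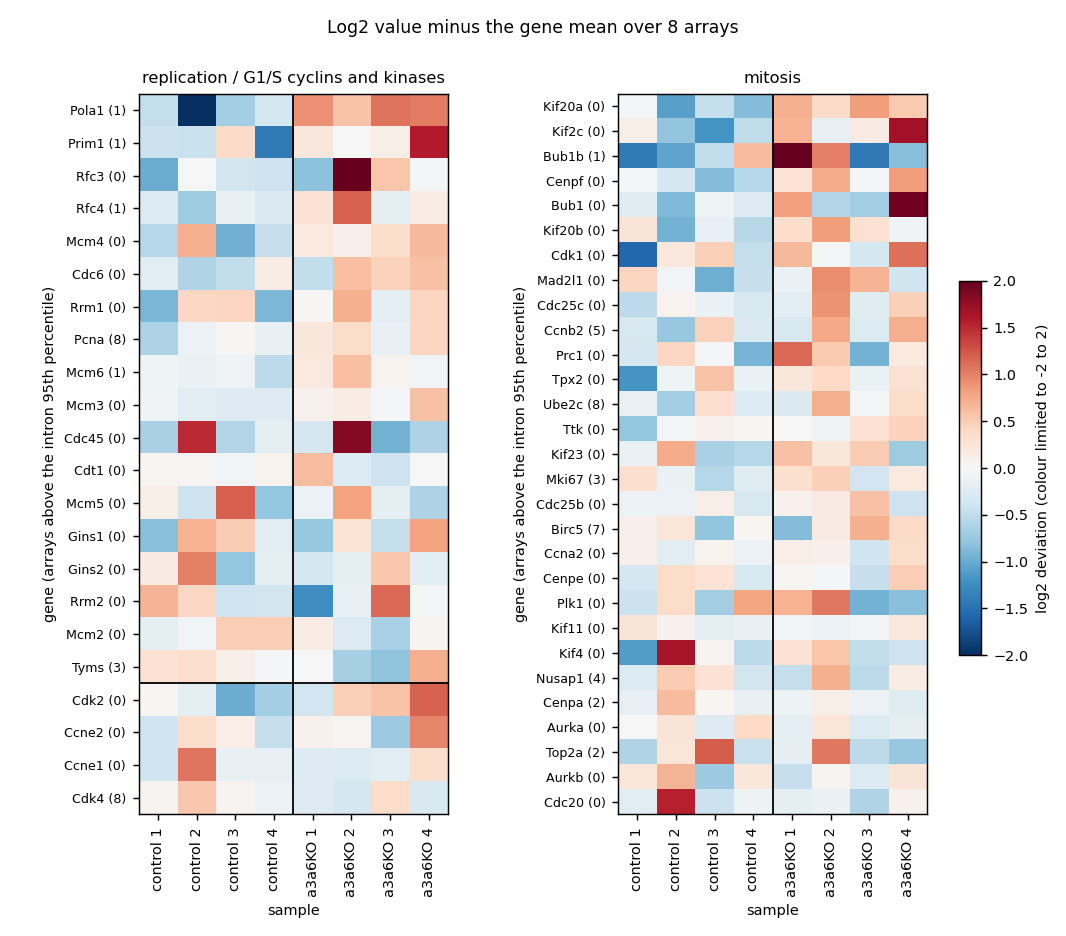
Log2 value of each of the 51 measured members minus its mean over the 8 arrays (colour, limited to -2 to 2), with samples in columns and genes in rows ordered by their difference within a role; the number after a gene is the count of arrays on which it lay over the intron 95th percentile. Pola1 and Kif20a, at the top of their panels, are the members of smallest p, and most rows carry a 0.

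The median differences of replication genes and mitotic genes were of similar size. The median log2 difference was 0.41 over 18 replication genes, 10 of them higher (55.6%, against 49.9% of all genes). It was 0.31 over 29 mitotic genes, 20 of them higher (69.0%). The 6 replication genes above the 95th percentile at least once had a median of 0.57, and the other 12 had -0.03. In mitosis these medians were 0.25 (8 genes) and 0.34 (21 genes). The split by level partly follows the differences, since Mcm6, Prim1, Pola1 and Rfc4 exceeded the mark on 1 a3a6KO array each and 0 control arrays. In mitosis, Mki67 and Bub1b exceeded it on a3a6KO arrays only and Cenpa on control arrays only. The medians by level are therefore no support for a difference. The mitotic median was 0.20 without a3a6KO 2. Without a3a6KO 3 and 4 the order of the roles turned, with a median of 0.405 for replication and 0.4475 for mitosis. A score per array, averaging each gene's deviation from its own 8-array mean over a role, was -0.28, 0.017, -0.093 and -0.32 for replication in the controls, numbered 1 to 4, and -0.068, 0.43, 0.015 and 0.30 in the a3a6KO arrays. For mitosis it was -0.28, 0.029, -0.16 and -0.23 in control and 0.25, 0.38, -0.18 and 0.20 in a3a6KO. In both scores a3a6KO 2 was the highest sample and the groups overlapped, with control 2 above a3a6KO 1 and 3 in replication and controls 2 and 3 above a3a6KO 3 in mitosis. The replication score minus the mitosis score lay between -0.088 and 0.071 in control and between -0.31 and 0.19 in a3a6KO, a mean difference of 0.015 that was smaller than the SD within either group (0.065 and 0.22). The basal marker score was -0.16, 1.04, -0.22 and 1.33 in control and -0.88, -0.89, 0.60 and -0.82 in a3a6KO. The arrays of lowest basal score, a3a6KO 1, 2 and 4, had the highest mitosis scores. Controls 1 and 3, which lay between those arrays and the other controls in basal score, were below 0 in both cell cycle scores. Control 2, at 1.04 in basal score, was the highest control in both. The part of the basal markers in these scores was not tested.

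**Figure D3:**
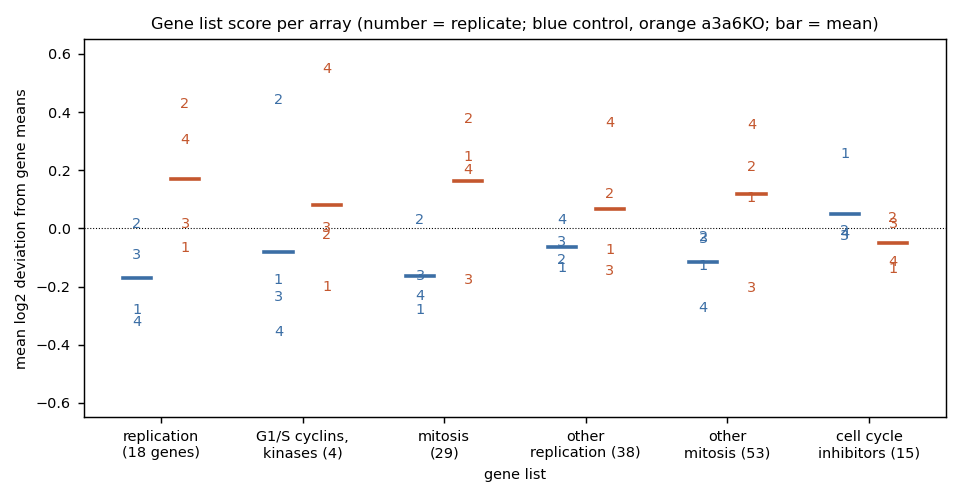
Score per array (y axis, mean log2 deviation from gene means) for 6 gene lists (x axis), with digits for the replicate, blue for control, orange for a3a6KO and bars for group means of 4. The replication means are -0.17 and 0.17 and the mitosis means -0.16 and 0.16, and the digits of the groups overlap in both lists.

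Among the replication genes, those that start and clamp new strands had the largest median differences by subgroup, 1.38 over 2 genes and 0.71 over 3 genes. Pola1, the catalytic subunit of polymerase alpha, was at 4.99, 3.38, 4.79 and 5.11 in the controls and at 6.37, 6.03, 6.55 and 6.49 in the a3a6KO arrays (log2). Every a3a6KO value thus exceeded every control value, although Pola1 was above the 95th percentile of the intron sets on 1 array only, a3a6KO 4. The difference was 1.79 (SE 0.362, 95% interval 0.98 to 2.61), with a limma adjusted p of 0.743, and 1.40 without control 2. Prim1, the primase subunit of the same complex, was at 5.33, 5.32, 6.15 and 4.35 in control and at 6.0, 5.76, 5.88 and 7.35 in a3a6KO, a difference of 0.96 (SE 0.441), or 0.59 without a3a6KO 4. Control 3 lay above 3 of the 4 a3a6KO values of Prim1. The other subunits of the complex, from the list of further replication genes, did not share this: Pola2 differed by -0.91 (SE 0.488) and Prim2 by -0.07 (SE 0.183), and both were under the 95th percentile on every array. The test of this difference between subunits was not made.

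Pcna, the sliding clamp, was among the members measured well above background. Its values were 8.53, 9.03, 9.17 and 9.0 in control and 9.37, 9.52, 9.0 and 9.58 in a3a6KO. The lowest a3a6KO value, that of a3a6KO 3, lay within the control range, and the other 3 lay above it. The difference was 0.44 (SE 0.204, 95% interval -0.023 to 0.893), which did not pass (limma adjusted p = 0.944). The clamp loader gene Rfc4 was at 5.37, 4.93, 5.49 and 5.35 in control and at 5.93, 6.82, 5.44 and 5.79 in a3a6KO, a difference of 0.71 (SE 0.289) that was 0.44 without a3a6KO 2. Rfc3, of the same loader, differed by 0.88 (SE 0.535), or 0.34 without a3a6KO 2, and exceeded the 95th percentile on 0 arrays. In the list of further replication genes, the loader gene Rfc5 differed by 0.49 (SE 0.375). Rfc1 and Rfc2, also of the loader, did not share this, at 0.01 (SE 0.653) and -0.03 (SE 0.272).

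The mean differences of the helicase genes ran in both directions, and whether they differ from each other was not tested. Mcm6 was at 6.25, 6.21, 6.27 and 5.82 in control and 6.53, 6.95, 6.42 and 6.29 in a3a6KO, without overlap, a difference of 0.41 (SE 0.196). Mcm3 was at 4.77, 4.63, 4.58 and 4.59 in control and 4.93, 4.99, 4.82 and 5.43 in a3a6KO, also without overlap, a difference of 0.40 (SE 0.176). Both gaps were narrow. Mcm6 exceeded the 95th percentile on 1 array, and Mcm3 was under it on every array. Mcm4 differed by 0.65 (SE 0.334), whereas Mcm5 differed by -0.06 (SE 0.439, or 0.32 without a3a6KO 3 and 4) and Mcm2 by -0.36 (SE 0.245). Mcm4, Mcm5 and Mcm2 were also under the 95th percentile on every array. Over the 8 arrays, deviations from the group means gave the 5 measured MCM genes a mean pairwise correlation of -0.069, which is given as a description since the values share arrays and lie near background. The genes that switch the helicase on, Gins1, Gins2 and Cdc45, differed by -0.08, -0.10 and -0.03, each smaller than its standard error; Cdc45 was at 0.73 without a3a6KO 3 and 4. The licensing genes Cdc6 and Cdt1 differed by 0.58 and -0.03, the latter 0.16 without those arrays. In nucleotide supply, the reductase genes Rrm1 and Rrm2 differed by 0.48 and -0.16, and the thymidylate synthase gene Tyms, above the 95th percentile on 3 arrays, by -0.37.

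**Figure D4:**
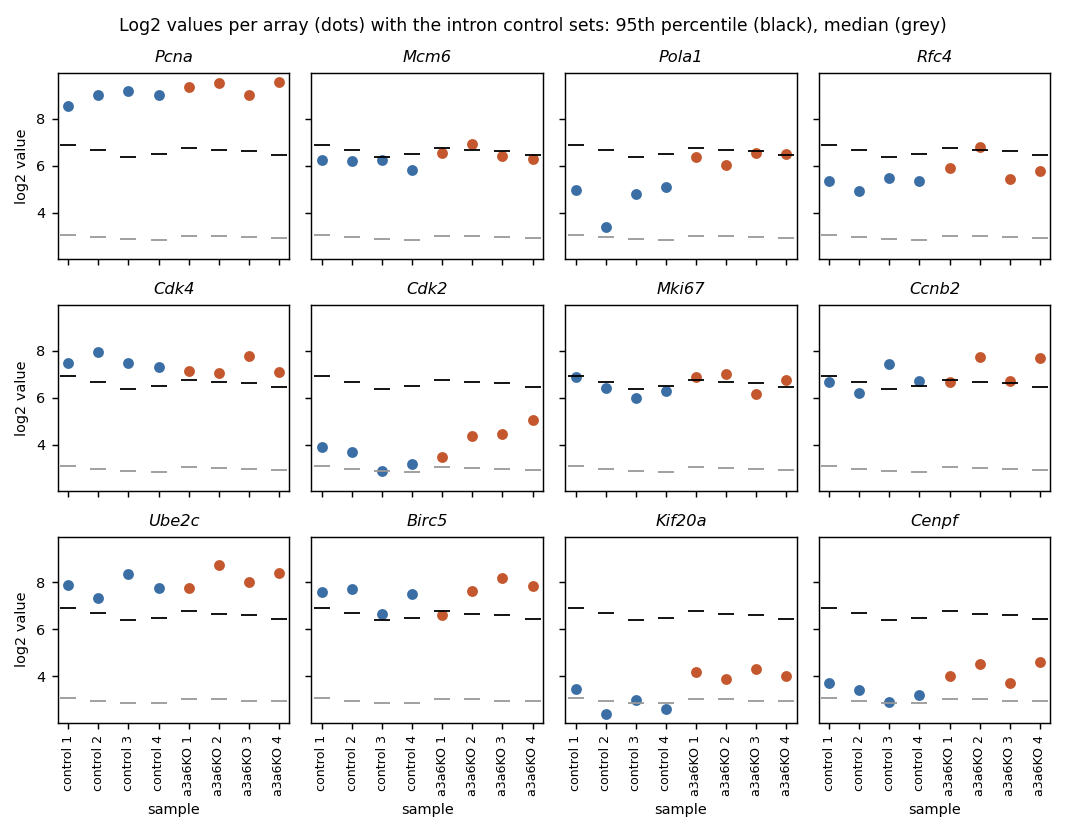
Log2 values of 12 members on each array (dots, blue control and orange a3a6KO) with the 95th percentile (black dash) and the median (grey dash) of that array's intron control sets. Pcna, Cdk4 and Ube2c stay above the black dash on all 8 arrays, and Kif20a and Cenpf stay below it on all 8.

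Among the G1/S genes, the kinase gene Cdk4, partner of the D cyclins, was at 7.45, 7.93, 7.45 and 7.28 in control and at 7.14, 7.05, 7.76 and 7.08 in a3a6KO. It was above the 95th percentile on every array, and 3 of 4 a3a6KO values lay below the control range. The difference was -0.27 (SE 0.221, 95% interval -0.768 to 0.228), or -0.14 without control 2 and -0.44 without a3a6KO 3. Cdk2, the partner of cyclins E and A, was at 3.89, 3.67, 2.88 and 3.18 in control and 3.48, 4.35, 4.44 and 5.04 in a3a6KO, a difference of 0.92 (SE 0.345), with a limma adjusted p of 0.944. Cdk2 was under the 95th percentile on every array, and a3a6KO 1 lay within the control range. The cyclin E genes Ccne1 and Ccne2 differed by -0.19 and 0.19, each smaller than its standard error.

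The common markers of proliferation did not separate the groups. Mki67, which coats mitotic chromosomes and marks cycling cells, was at 6.87, 6.41, 5.97 and 6.30 in control and at 6.86, 7.01, 6.16 and 6.74 in a3a6KO. The ranges overlapped, and control 1 lay above 3 of the 4 a3a6KO values. Top2a, the topoisomerase that untangles sister chromosomes, was at 5.16, 6.01, 6.97 and 5.32 in control and at 5.58, 6.81, 5.23 and 5.01 in a3a6KO, a difference of -0.21 (SE 0.482). Control 3 and a3a6KO 2 were the high samples of Top2a, and the difference was 0.16 without control 3 and 0.33 without a3a6KO 3 and 4. For Mki67 the difference was 0.31 (SE 0.25, 95% interval -0.259 to 0.869), or 0.17 without control 3 and 0.48 without a3a6KO 3.

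Of the mitotic cyclins, Cdk1 and the genes of the anaphase promoting complex, Ube2c lay above the 95th percentile on 8 arrays, Ccnb2 on 5 and Ccna2, Cdk1 and Cdc20 on none. Ube2c, the ubiquitin-conjugating enzyme of the anaphase promoting complex, was at 7.89, 7.35, 8.37 and 7.75 in control and at 7.74, 8.75, 7.99 and 8.40 in a3a6KO. Ccnb2, a B-type cyclin, was at 6.65, 6.21, 7.44 and 6.69 in control and at 6.66, 7.73, 6.70 and 7.70 in a3a6KO. In both genes a3a6KO 2 and 4 and control 3 were high and control 2 was lowest, and the groups overlapped. Their deviations from the group means had a correlation of 0.951 over the 8 arrays, the highest of the pairs among the 15 members that exceeded the 95th percentile at least once, a description of a pair chosen for its size. The lowest of these pairs, Pola1 with Cenpa, was as extreme, at -0.978. Ube2c differed by 0.38 (SE 0.281), or 0.20 without a3a6KO 2, and Ccnb2 by 0.45 (SE 0.343), or 0.27 without control 2 and 0.68 without control 3. Cdc20, the activator of the same complex, differed by -0.41 (SE 0.408), and by 0.05 without control 2. Cdk1, the kinase that drives entry into mitosis, was at 2.78, 4.57, 4.84 and 3.88 in control and at 5.0, 4.32, 4.01 and 5.45 in a3a6KO, a difference of 0.68 (SE 0.472) that was 0.27 without control 1. Cyclin A2, from Ccna2, differed by 0.09 (SE 0.193).

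The Aurora kinase genes and Plk1 had a mean in a3a6KO at or below that in control. Aurka, a kinase of the spindle poles, was at 4.80, 5.07, 4.56 and 5.21 in control and at 4.62, 5.06, 4.54 and 4.63 in a3a6KO, a difference of -0.20 (SE 0.201), or -0.10 without control 4. Plk1, which acts from mitotic entry to cytokinesis, was at 3.31, 4.10, 3.04 and 4.53 in control and at 4.44, 4.79, 2.80 and 2.91 in a3a6KO. The a3a6KO values of Plk1 fell into a high and a low pair, and the mean difference of -0.01 (SE 0.515) turned to 0.87 without a3a6KO 3 and 4 and to 0.02 with each array centred on its gene median. Aurkb, the kinase of the chromosomal passenger complex, differed by -0.22. Its partner Birc5 was at 7.57, 7.71, 6.67 and 7.51 in control and at 6.60, 7.64, 8.17 and 7.85 in a3a6KO, a difference of 0.20 (SE 0.358) that was -0.25 without a3a6KO 3 and 4. All 3 kinases were under the 95th percentile on every array, whereas Birc5 exceeded it on 7.

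The mitotic genes of smallest p were kinesins and the kinetochore gene Cenpf, all measured near background. Kif20a, a kinesin of the central spindle needed for cytokinesis, was at 3.45, 2.39, 3.01 and 2.62 in control and 4.19, 3.87, 4.31 and 4.0 in a3a6KO. The groups did not overlap, and Kif20a was under the 95th percentile on every array and above the intron median on 6. The difference was 1.23 (SE 0.243, 95% interval 0.678 to 1.77), with a limma adjusted p of 0.743. Cenpf was at 3.73, 3.43, 2.89 and 3.19 in control and 4.03, 4.51, 3.73 and 4.60 in a3a6KO, where a3a6KO 3 equalled control 1, a difference of 0.91 (SE 0.256). Kif2c, which takes apart microtubule ends at centromeres, was at 4.78, 3.88, 3.47 and 4.16 in control and 5.35, 4.50, 4.82 and 6.34 in a3a6KO, a difference of 1.18 (SE 0.414). In Kif2c, a3a6KO 2 lay below control 1. Kif20b differed by 0.71 (SE 0.289), whereas Kif11, the motor that separates the spindle poles, differed by -0.01 (SE 0.17), Kif4 by -0.03 (0.41 without a3a6KO 3 and 4) and Kif23 by 0.31.

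The spindle checkpoint genes Bub1, Bub1b, Mad2l1 and Ttk had higher means in 4 of 4 genes, by 0.74, 1.16, 0.54 and 0.34, and single arrays made much of this. Bub1b was 7.51 in a3a6KO 1 and between 2.49 and 4.92 on the other 7 arrays, and its difference was 0.16 without a3a6KO 1. Bub1 was 6.01 in a3a6KO 4, and its difference was 0.21 without that array. Nusap1, which bundles spindle microtubules, was at 6.16, 6.93, 6.72 and 6.06 in control and 5.95, 7.14, 5.90 and 6.58 in a3a6KO, a difference of -0.08 (SE 0.32) that was 0.08 without a3a6KO 3 and 4. The remaining mitotic members, Cdc25b, Cdc25c, Cenpa, Cenpe, Tpx2 and Prc1, differed by -0.18 to 0.46, and in each the 95% interval of the difference included 0.

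**Figure D5:**
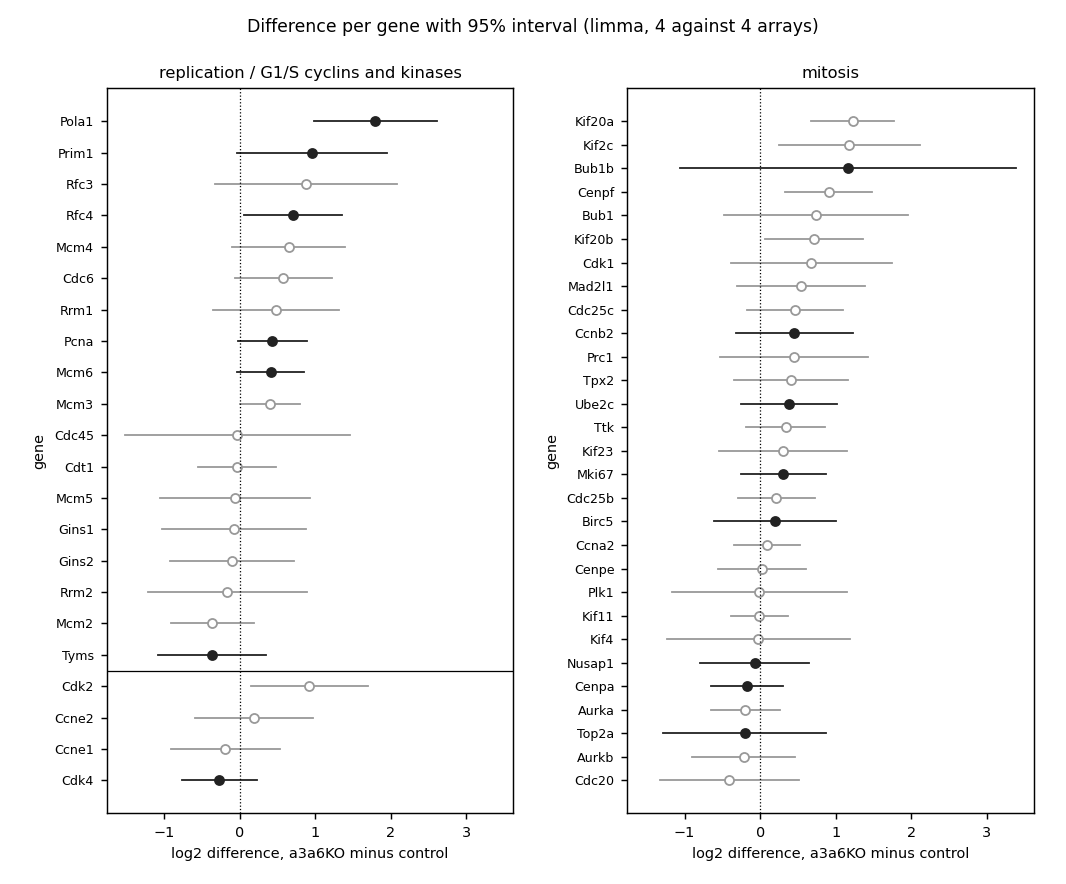
Log2 difference, a3a6KO minus control, with its 95% interval from limma for the 51 measured members (4 arrays against 4). Filled symbols mark the 15 members above the 95th percentile of the intron sets on at least 1 array and open symbols the other 36; Pola1 at 1.79 is the largest difference, and the intervals of most genes cross 0.

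The members varied together only weakly. The mean pairwise correlation of deviations from the group means, over 8 arrays that all pairs share, was 0.081 in the 51 members, 0.052 within replication, 0.069 within mitosis, 0.090 between replication and mitosis and 0.0 in all genes. Of the 32 members with a higher mean in a3a6KO, 28 kept that sign whichever single array was left out, and of the 19 with a lower mean, 5 did. A difference near 0 turns its sign easily. Among the lower ones Kif11 and Plk1 (-0.01 each) and Cdc45 and Kif4 (-0.03 each) were near 0, as Cenpe (0.02) was among the higher ones. In 10 members the difference stayed within 1.5 times its value whichever array was left out: Pcna, Mcm3, Mcm6, Cdc6, Pola1, Cdk2, Cenpf, Kif20a, Kif20b and Kif2c. In the other 41 leaving out 1 array moved it further or turned its sign. For these counts the shares over all genes are not given here, so they show nothing particular to the members. When the mitotic genes were split by promoter, the 20 with a CHR match had a median difference of 0.32 and the 4 without one 0.11; the 7 replication genes with an E2F match had 0.41 and the 8 without one 0.20. Other splits ran the other way: 0.31 with and 0.54 without CCAAT, and 0.31 with and 0.37 without both CHR and CCAAT, in mitotic genes, and -0.03 with and 0.42 without CHR in replication genes. These medians are descriptions of small groups with overlapping values.

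Further genes of the same processes, listed from textbook knowledge, were counted in the same fit. Over all genes, 49.9% had a higher mean in a3a6KO, with a median of -0.0025. Of 38 measured genes for replication beyond the members, 26 had a higher mean in a3a6KO (68.4%), with a median of 0.08 and 0 past the threshold. Their smallest p-values belonged to Orc6, of the origin recognition complex (1.26, SE 0.36), and Tipin, which steadies the replication fork (1.27, SE 0.375). Tipin was at 2.84, 3.89, 4.0 and 3.43 in control and 4.27, 4.61, 4.54 and 5.83 in a3a6KO, without overlap and under the 95th percentile on every array. Of 53 further mitotic genes, 41 had a higher mean (77.4%), with a median of 0.25 and 0 past the threshold. Ckap2l differed by 0.66 and Sgo2a, which protects centromeric cohesion, by -0.64. Of 15 inhibitors of the cell cycle, 4 had a higher mean (26.7%) and 11 a lower one, with a median of -0.09 and 0 past the threshold. Among them Btg2, an antiproliferative gene, was at 9.85, 9.57, 9.57 and 9.44 in control and 9.40, 9.01, 8.37 and 9.25 in a3a6KO, above the 95th percentile on every array and without overlap by a narrow gap, a difference of -0.60 (SE 0.237) with a limma adjusted p of 0.944. Cdkn2c, an inhibitor of Cdk4, differed by 0.86 (SE 0.342). Of 18 factors of the E2F, MYB and DREAM groups, 10 had a higher mean (55.6%, median 0.12, 0 past the threshold), a share near that of all genes. Mybl1 differed by 0.62 (SE 0.209) and Lin54, the DREAM subunit that contacts the CHR, by 1.08 (SE 0.417).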

How the data were processed

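Values are log2 expression per probe set, deposited as 1 table for 8 arrays; per the submitters' processing notes the authors made them with Affymetrix Expression Console and RMA, versions not stated. RMA sets all arrays to 1 distribution by quantiles, which would take out a shift common to most genes. The genome build of the probe sets is not given in the sources used here. Names came from GEO's annotation of the platform: of 28846 sets, 19572 had 1 symbol, giving 19505 genes; where 55 genes had several sets, that of the highest mean was kept. Of these 55 genes, none was a member. Background was the 95th percentile of 5222 intron control sets on the same array. Groups, 4 arrays each, were compared with limma 3.58.1 in R 4.3.3 (lmFit, eBayes, two-sided, group only), with Benjamini-Hochberg adjustment over all genes at 0.05; the fit was tested on simulated data. Arrays have no read depth, and their number limits the precision. The members, lists, motifs and tests were chosen with earlier results of these data known. Members named with values were those above background on at least 4 arrays, the 3 of smallest p in each role, those without overlap, and Mki67, Top2a, Pcna, Cdk1, Aurka and Plk1; Prim1, Rfc3, Bub1, Bub1b and others were named after their values were seen. From each further list the 2 genes of smallest p were named. Pola2, Prim2, Rfc1, Rfc2, Rfc5, Krt14, Acta2, Cd3e and Cd3g were added after their values were seen. Alternatives were other centring, fitting, filtering and background levels, a replicate block, and arrays left out.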

Additional observations from a re-analysis of the deposited data

Results flagged for a closer look

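In groups of 4 arrays, a value was singled out where its gap to the nearest value, divided by the range of the group, exceeded Dixon's critical value of 0.829. Of 102 groups (51 members in 2 groups), 8 held such a value, and chance gives about 1 in 20. The values were 5.82 for Mcm6 in control 4, 3.95 for Cdc6 in a3a6KO 1, 7.35 for Prim1 in a3a6KO 4, 5.37 for Ccne1 in control 2, 4.65 for Ccne1 in a3a6KO 4, 7.76 for Cdk4 in a3a6KO 3, 6.62 for Cdc20 in control 2 and 2.91 for Ttk in control 1. Control 2 and a3a6KO 4 each account for 2 of them. Prim1 stood apart upward in a3a6KO 4, the array whose removal lowered its difference from 0.96 to 0.59. Cdc20 stood apart upward in control 2, and its difference turned from -0.41 to 0.05 without that array.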

How the results depend on the processing

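The count of members past the threshold was 0 under every alternative run, and so was the count over all genes. The number of members higher in a3a6KO was 31 to 42 under the alternatives that kept all 51 (32 to 42 with 1 array left out), and 4 of 6 with dim genes left out. The median log2 difference kept its sign under every alternative, at 0.28 to 0.463 for replication and 0.203 to 0.315 for mitosis with 1 array left out. Centring the arrays on intron sets gave 0.36 and 0.26, with 31 members higher, and centring on genes gave 0.43 and 0.33, with 35 higher; the median of all genes was then -0.05 and 0.025. With the 90th percentile of the intron sets as background, 27 members exceeded it at least once and 10 on every array, and with the 99th percentile 1 and 0. Some single genes changed sign. Without a3a6KO 3 and 4, 8 members changed sign, among them Top2a at 0.33, Plk1 at 0.87, Birc5 at -0.245 and Nusap1 at 0.078. Plk1 was also 0.563 without control 4 and a3a6KO 3, 0.022 with array weights and 0.018 with arrays centred on genes. With 1 array left out, Plk1 ranged from -0.362 to 0.302, Nusap1 from -0.324 to 0.089, Top2a from -0.592 to 0.161, Birc5 from -0.032 to 0.522 and Ccne1 from -0.35 to 0.14. These genes had differences near or under their standard errors, and the cause was not tested. Removing pairs of arrays was chosen after seeing the data.

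Arrays of the 2 groups share replicate numbers 1 to 4. Deviations of same-numbered arrays correlated at -0.061 to 0.039, and those of differently numbered arrays at -0.084 to 0.136. These correlations show no pairing by number, but they cannot exclude it. With the number as a replicate block, 0 members passed, 32 were higher and the medians were 0.405 and 0.305, and members with an unadjusted p under 0.05 went from 8 to 5.

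Signal over background limits the members: 36 of 51 members, and 14900 of 19505 genes, exceeded the 95th percentile of the intron sets on no array. The differences of those 36 members were therefore measured near background.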
